A study of Mus musculus with 32 samples.

Results

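The comparison described here is that of brain from mice homozygous for a deletion of the phenylalanine tRNA gene tRNA-Phe-GAA-2-1 (labelled tRNA-Phe-GAA-2-1-/-, n = 3, replicates 7, 8 and 9) with brain from wild-type mice (WT, n = 3, replicates 1, 2 and 3). These 6 libraries were chosen by their labels out of 32 in the series, and each has a value at every tRNA locus of the table, of which 253 had a mean count high enough to be tested and 148 did not. All 6 carry the labels strain C57BL/6N and batch 1, and the methods describe age-matched male wild-type and mutant mice. The age given for the mice of the study as a whole, which used both sexes, is 10 weeks. The knockout line was made by injecting embryos with 1 CRISPR guide against the whole family and then separating the deletion of 2-1 from the others by crosses to wild type. Chromatin accessibility was measured by ATAC-seq. A transposase inserts sequencing adapters into DNA that is not packed away, and the number of reads over a locus measures how open it is and not how much tRNA it makes. Nuclei came from pieces of whole brain, so fewer open cells and less openness per cell cannot be told apart. The labels do not tie libraries to animals, whereas the supplement describes 3 mice for each of the groups in brain, so p-values measure the spread between these libraries.

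Transfer RNAs carry amino acids to the ribosome and read codons through a 3-base anticodon. tRNA-Phe with the anticodon GAA reads both phenylalanine codons and is encoded in the mouse by 7 genes. Genes that share an anticodon while the rest of the tRNA body differs are called isodecoders, and the first number in a gene's name stands for the body and the last for the copy. tRNA genes are transcribed by RNA polymerase III from promoter elements that lie inside the gene, and the chromatin of transcribed tRNA genes is usually open. The question here is what happens to all other loci, and above all to the 6 intact tRNA-Phe loci, when a gene with a low count in brain is lost.

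The sequences of 3 of the 7 genes are shown because they are the 3 distinct bodies of the family, and the loss of 2-1 removes 1 of them. Each gene is 73 bases long, is given 5′ to 3′ and was read from GRCm39 by matching the guide. The 5 genes from 1-1 to 1-5 are identical, and capitals mark the bases by which the others differ from them.
tRNA-Phe-GAA-1-1: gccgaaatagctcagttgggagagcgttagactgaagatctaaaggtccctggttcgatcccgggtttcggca
tRNA-Phe-GAA-2-1: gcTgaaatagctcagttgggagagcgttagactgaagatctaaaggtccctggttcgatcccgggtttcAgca
tRNA-Phe-GAA-3-1: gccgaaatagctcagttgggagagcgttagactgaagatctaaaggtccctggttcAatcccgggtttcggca
Counted from 1 at the 5′ end of the gene, 2-1 carries C3T and G70A, which face each other in the acceptor stem, so that all 7 pairs of that stem are kept. Gene 3-1 carries G57A.

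The guide is gcgttagactgaagatctaa, and it is shown because it matches all 7 genes perfectly and no other site in GRCm39, each time beside the PAM AGG. The genotype of the line therefore rests on the breeding and on the sequencing by which the deletions were identified and checked. Unlike the gene bodies, the flanks are distinct. The 50 bases on either side of 2-1, which are counted with the gene, share between 23.0% and 42.0% of positions with the flanks of the other 6 loci. The window counted for 2-1 is printed with the gene in capitals.
Window of tRNA-Phe-GAA-2-1: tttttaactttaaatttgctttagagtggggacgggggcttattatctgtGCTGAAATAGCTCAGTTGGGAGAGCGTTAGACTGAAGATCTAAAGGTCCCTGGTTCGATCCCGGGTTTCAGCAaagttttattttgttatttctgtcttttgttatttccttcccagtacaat
Reads that lie wholly within the shared gene body cannot be placed on 1 locus, and a tRNA-Phe value therefore rests mainly on reads that reach into the flanks. At loci whose flanks are also repeated, a low count from few placeable reads and a closed locus cannot be told apart.

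The gene tRNA-Phe-GAA-2-1 lies on the plus strand at chr19:12008545-12008617 on GRCm38.p6, the build of the files, and at chr19:11985909-11985981 on GRCm39. No annotated gene overlaps it, and the nearest coding gene, Osbp, which encodes an oxysterol-binding protein, is 14431 bases away. Its start lies 6309 bases after that of 1-5, in a cluster of 8 tRNA genes of RefSeq that also holds 2 Lys-CTT, 1 Leu-TAA, 1 Arg-TCT and 2 Val-TAC genes. Gene 1-1 lies on chromosome 5, 1-2 on chromosome 10, 1-3 and 3-1 on chromosome 13 and 1-4 on chromosome 14. Genes 1-3 and 3-1 overlap long noncoding RNAs named Gm32298 and Gm56563, and 1-2 lies 71 bases from the coding gene Ndufs7.

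Between 20315 and 26689 reads fell on the loci of the table in WT libraries and between 28228 and 29703 in knockout libraries, so every knockout library was the deeper. The normalised counts below are the deposited ones, read counts divided by 1 size factor per library. Correlations between libraries over the tested loci (log2 values) were 0.945 to 0.978, and knockout replicate 8 lay farthest from the others on the first principal component, which held 41.8% of the variance. The labelled tissue was checked with tRNA-Arg-TCT-4-1, a tRNA gene known for its expression in the central nervous system. Its normalised count was 203 ± 32.7 (SD, n = 3) in WT brain, while in WT liver, in a separately normalised table, it was 9.13 ± 2.04 (SD, n = 3).

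At the deleted locus itself the normalised count was 12.8, 1.92 and 11.4 in WT replicates 1, 2 and 3, from 12, 2 and 9 reads. In the knockout it was 1.83, 0 and 0 in replicates 7, 8 and 9, from 2, 0 and 0 reads. The knockout libraries were lower throughout, but WT replicate 2 lay close to knockout replicate 7. By reads, 7.24% of the WT level was left, with an exact conditional binomial interval of 0.828% to 29.3% (95%, counting error only), and 3 reads in a knockout library would correspond to at most 2.75 normalised counts. The deletion lies within the counted window, so missing DNA and closed chromatin cannot be told apart at this locus. The exact two-sided permutation test on log2 values gave p = 0.1, the smallest that 3 against 3 allows. Locus 2-1 fell below the level of 10 needed for the fit across loci. In WT brain it held 2.03% ± 1.35 (SD, n = 3) of the counts over the 7 tRNA-Phe loci, and 137 loci of the table had a lower mean than it.

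The 5 loci that share the body of 1-1 all had higher means in the knockout, between 112% and 125% of WT, and 3-1, which has a body of its own, had the lower mean, 73.2% of WT. Tested over all 253 loci with a mean of at least 10, none of the 6 passed an adjusted p of 0.05 (limma with trend, Benjamini-Hochberg). The background is that 0 of the 253 tested loci, 0%, were called. The count at an unadjusted p under 0.05 was 43 of 253, 17% (25 higher and 18 lower), and 3 of the 6 intact tRNA-Phe loci were among them. Other scalings moved that split: equal library totals gave 17 higher and 20 lower, TMM 31 and 17, and a loess fit along the level 16 and 22. Without the trend in limma it was 18 and 22.

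Locus 1-2 read 68.4, 66.3 and 74.7 in WT and 82.6, 96.0 and 83.5 in the knockout. Every knockout library was above every WT library, and the log2 change was 0.32 (SE 0.12, adjusted p = 0.168, limma). Locus 1-1, the highest of the family in WT brain, read 103.7, 94.1 and 100.1 in WT against 119.2, 118.6 and 111.1. Again the groups did not overlap, with a log2 change of 0.23 (SE 0.095, adjusted p = 0.238, limma). Locus 3-1 read 50.2, 49.0 and 44.3 in WT and 42.2, 34.4 and 28.4 in the knockout. All 3 knockout libraries were below all WT libraries, and the log2 change was -0.46 (SE 0.18, adjusted p = 0.187, limma).

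The other members of the family overlapped between the groups. Locus 1-3 had 87.6 ± 3.45 in WT and 97.9 ± 13.3 in the knockout (SD, n = 3), where replicate 8 alone reached 113.2. Locus 1-4 had 61.9 ± 8.76 and 71.4 ± 6.50. Locus 1-5, the neighbour of the deleted gene, had 49.0 ± 5.66 and 55.1 ± 0.94, and its 3 knockout libraries lay within 54.1 to 56.0, beside a highest WT value of 54.5. Its log2 change was 0.17 (SE 0.14, adjusted p = 0.584, limma) and ran from 0.085 to 0.25 without 1 library.

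**Figure D1:**
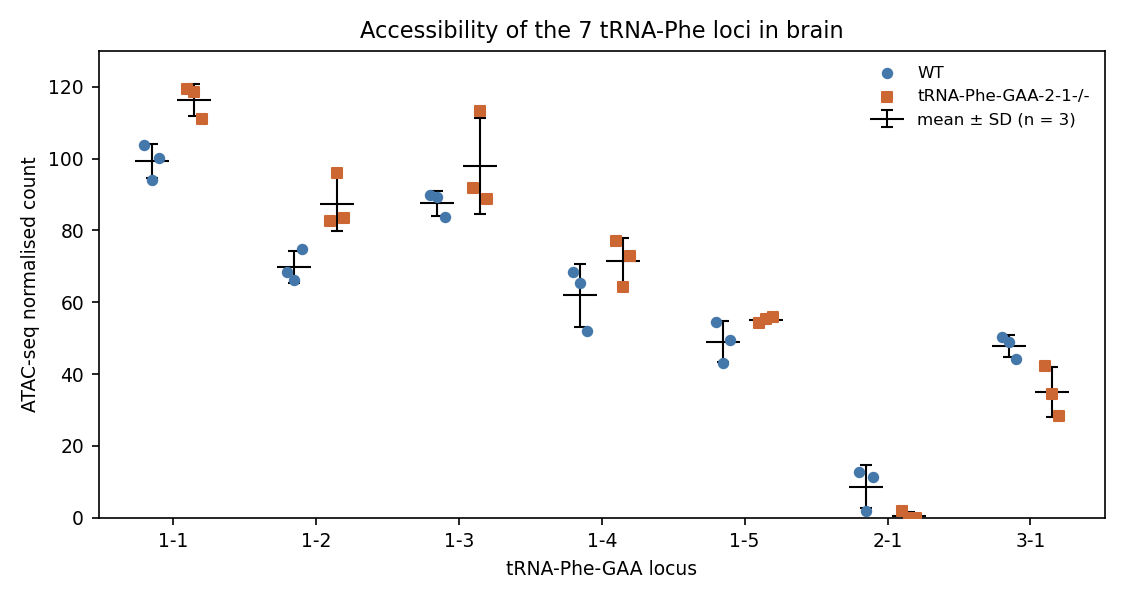
Normalised ATAC-seq count (y axis, linear) at each of the 7 tRNA-Phe-GAA loci (x axis) in the 3 WT and 3 tRNA-Phe-GAA-2-1-/- brain libraries; points are libraries and bars the mean ± SD. At 1-1 and 1-2 every knockout point is above the WT points, at 2-1 and 3-1 every knockout point is below them, and at 1-3, 1-4 and 1-5 the groups overlap.

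Summed over the 6 intact loci, the normalised counts were 435.1, 407.2 and 404.1 in WT and 466.9, 481.7 and 440.7 in the knockout, which was 111% of WT. The groups did not overlap. With 2-1 included the sum was 424 ± 20.8 in WT and 464 ± 20.9 in the knockout (SD, n = 3), 109% of WT, and here the lowest knockout library (440.7) was below WT replicate 1 (447.9). The mean sum over the family was thus not lower without 2-1. Other families also had higher sums in every knockout library, such as asparagine (115% of WT), proline (111%), leucine (108%) and threonine (108%). The sums of alanine, valine, glutamine and cysteine loci were at 94.4% to 96.4% of WT. Over all loci of the table the sums were 25504 to 25734 in WT and 25891 to 26895 in the knockout. As shares of the 7-locus sum, 1-1 went from 23.4% ± 0.59 to 25.1% ± 0.42, 1-2 from 16.5% ± 1.38 to 18.8% ± 1.16 and 3-1 from 11.3% ± 0.65 to 7.53% ± 1.32 (SD, n = 3). The median log2 change of the 6 tested tRNA-Phe loci was 0.19, beside 0.01 over all 253 loci.

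Across the rest of the table, 11 loci lay just outside the threshold, with adjusted p between 0.0594 and 0.0619 (limma), 7 of them higher in the knockout and 4 lower. The groups did not overlap at 61 of the 253 tested loci, 24.1%, of which 35 were higher in the knockout (13.8%) and 26 lower (10.3%). The 6 higher and 6 lower loci described next are those of the non-overlapping loci with the smallest unadjusted p.

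tRNA-Asn-GTT-3-7, an asparagine tRNA gene and among the loci of highest count, read 258.7, 316.0 and 287.6 in WT and 355.9, 364.0 and 362.5 in the knockout. The knockout libraries were close together and above all WT libraries, and the log2 change was 0.33 (SE 0.07, adjusted p = 0.0594, limma). tRNA-Glu-CTC-1-7, a glutamate tRNA gene, had 78.4 ± 4.30 in WT and 106 ± 7.19 in the knockout (SD, n = 3), 135% of WT, the highest ratio of the 6. tRNA-Leu-TAG-3-1, for leucine, stood out by the narrow spread of its WT libraries, 112.2, 109.5 and 112.7, against 136.7, 149.4 and 135.1. tRNA-Thr-CGT-2-1, tRNA-Pro-TGG-1-1 and tRNA-Arg-CCG-3-1 were at 126%, 123% and 127% of WT. Each of these 5 had an adjusted p of 0.0619 (limma).

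The lower loci included 2 genes for tyrosine tRNA, whose anticodon GTA differs from GAA by its middle base. tRNA-Tyr-GTA-1-2 read 52.4, 57.6 and 58.3 in WT and 37.6, 29.9 and 32.9 in the knockout. That is 59.6% of WT, with a log2 change of -0.73 (SE 0.16, adjusted p = 0.0594, limma), and no knockout library came near WT. tRNA-Tyr-GTA-1-1 read 101.6, 105.7 and 129.2 in WT against 80.7, 91.5 and 70.2 (log2 change -0.47, adjusted p = 0.0619, limma). The other 7 tested tRNA-Tyr loci overlapped between the groups, tRNA-Tyr-GTA-3-1, 2-1 and 3-2 among them, which are 3 of the 5 loci of highest count in WT brain. tRNA-Tyr-GTA-3-1 had 503 ± 6.98 in WT and 511 ± 16.4 in the knockout (SD, n = 3). The signs of its log2 change of 0.021 and of that of tRNA-Tyr-GTA-2-1, 0.010, turned with equal totals, so neither has a direction here. Summed over all 10 tRNA-Tyr loci, the knockout stood at 98.2% of WT.

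tRNA-Ala-TGC-1-1, for alanine, read 75.9, 78.8 and 76.0 in WT and 56.9, 48.9 and 55.1 in the knockout, 69.7% of WT (adjusted p = 0.0619, limma). tRNA-Ile-AAT-1-4, for isoleucine, was at 78.5% of WT with the same adjusted p (limma). tRNA-Arg-ACG-2-1 was at 78.9% (adjusted p = 0.116, limma). tRNA-Met-CAT-4-1, an elongator methionine locus of low count, read 22.5, 23.1 and 17.7 in WT and 11.01, 6.34 and 13.3 in the knockout, and its log2 change of -1.02 (SE 0.33, adjusted p = 0.122, limma) rests on 7 to 24 reads per library.

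**Figure D2:**
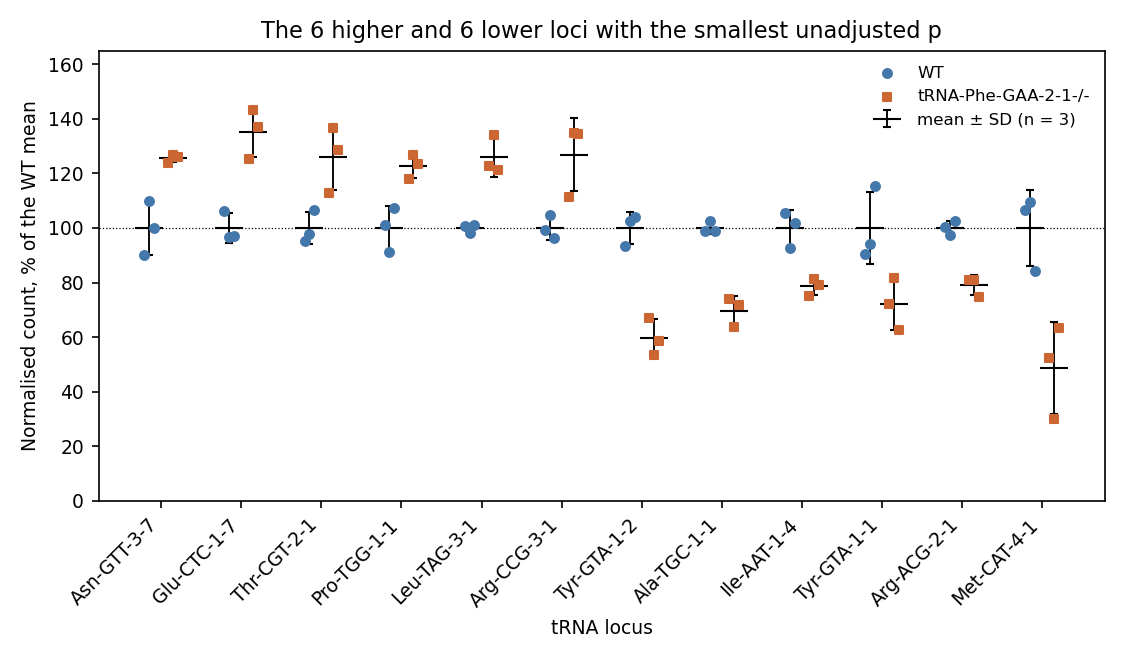
Normalised count as a percentage of the WT mean (y axis from 0) at the 6 higher and 6 lower non-overlapping loci with the smallest unadjusted p (x axis); points are single libraries, bars the mean ± SD, and the dotted line marks 100%. The higher loci sit at 123% to 135% of WT, and the lower ones at 48.5% to 78.9%; they were chosen for this separation.

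Whether any locus was called depended on the fit. TMM scaling called 9 loci, a fit with 5 WT libraries and a batch term called 11, leaving out knockout replicate 7 called 9 and leaving out WT replicate 2 called 1, tRNA-Asn-GTT-3-7. DESeq2 and edgeR on the recovered reads called 0, with 18 and 39 loci at an unadjusted p under 0.05. The 3 fits with 9 or more calls shared 7 loci: tRNA-Asn-GTT-3-7, tRNA-Glu-CTC-1-7, tRNA-Thr-CGT-2-1, tRNA-Pro-TGG-1-1 and tRNA-Arg-CCG-3-1, higher in the knockout, and tRNA-Tyr-GTA-1-2 and tRNA-Ala-TGC-1-1, lower. Without replicate 7, tRNA-Arg-TCG-1-1 (log2 change 0.33, against 0.28 with all 6 libraries) and tRNA-Ile-AAT-1-7 (-1.02, against -0.75) were called as well. No tRNA-Phe locus was called under any setting tried.

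The direction of the difference went with the level of the locus, though not in even steps. The tested loci were split by mean level into 4 groups of 63 or 64. In the lowest group, with mean counts of 11.5 to 41.6, the median log2 change was -0.24 and 14 of 64 loci had a higher mean in the knockout. In the groups between, by rising level, the medians were 0.07 and 0.01, with 38 and 34 of 63 loci higher. In the highest group, from 131 to 507, the median was 0.09 and 50 of 63 were higher. Across the 253 loci the log2 change and the log2 level had r = 0.50 (Spearman's rho 0.42), given as a description since loci share the same 6 libraries. The 148 loci below the filter went the way of the lowest group. Their summed count was 361.3, 362.1 and 380.0 in WT and 314.6, 261.7 and 287.0 in the knockout, 78.2% of WT, with no overlap between the groups. The loci of the highest group summed to 13395 to 13463 in WT and 13895 to 14749 in the knockout.

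Knockout replicate 8 carried much of this pattern. Without it the median of the lowest group was -0.10, while that of the highest group was 0.06. The knockout libraries were also the deeper ones, and neither the part of depth nor that of a library's background level was tested. Locus 3-1, at a mean of 41.4, lies at the upper edge of the lowest group, which ends at 41.6. In that group 12 of 64 loci lay below all WT libraries without overlap and 1 lay above. Loci 1-2 and 1-1 do not belong to it. After the loess fit along the level, the log2 change was -0.37 at 3-1, 0.30 at 1-2, 0.22 at tRNA-Asn-GTT-3-7 and -0.66 at tRNA-Tyr-GTA-1-2, with adjusted p of 0.321, 0.224, 0.166 and 0.0716 (limma).

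**Figure D3:**
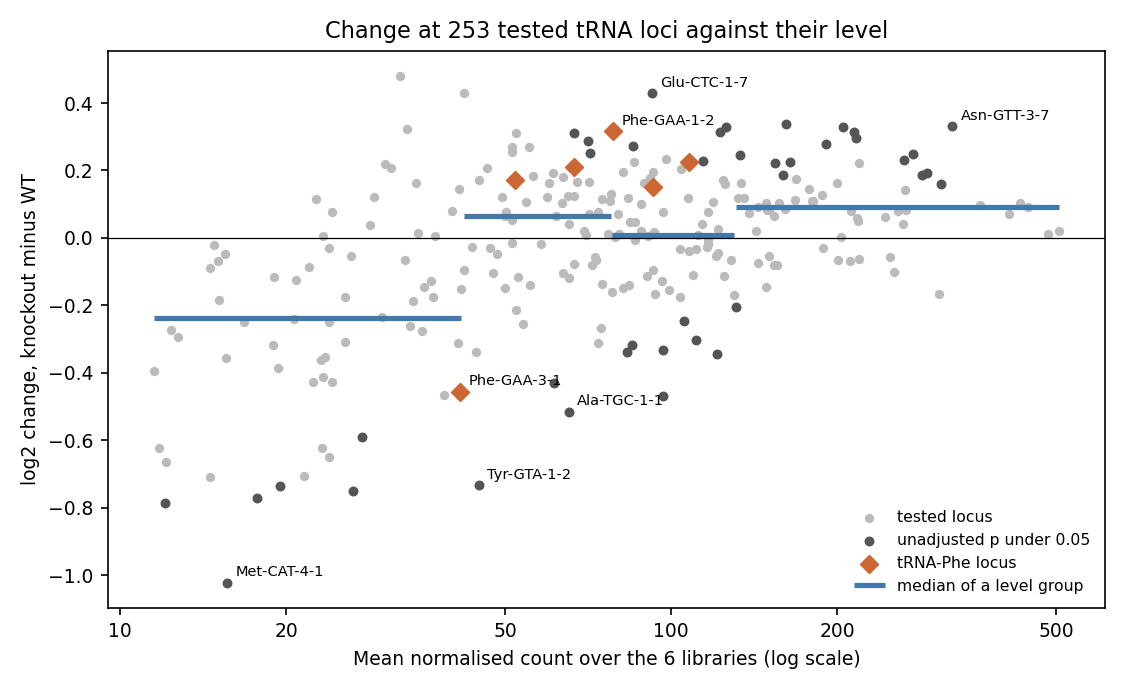
log2 change of each of the 253 tested loci (y axis, knockout minus WT) against its mean normalised count over the 6 libraries (x axis, log scale); dark points have an unadjusted p under 0.05, diamonds are tRNA-Phe loci and lines the median of each of 4 groups by level. By rising level the medians are -0.24, 0.07, 0.01 and 0.09.

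Grouped by amino acid, every family with 6 or more tested loci had means on both sides of WT. Asparagine loci had the highest median, 0.20 over 6 tested, with 4 of the 6 above all WT libraries, beside 13.8% of all tested loci, and none below. The 6 tRNA-Phe loci came next. Proline loci had 5 of 13 at an unadjusted p under 0.05, all higher, among them tRNA-Pro-TGG-1-1, beside a background of 9.88% higher over all tested loci. Leucine loci had 4 of 20, all higher, and threonine loci 4 of 16, all higher. Alanine loci had 4 of 19 lower and 1 higher, with a median of -0.06 (-0.12 to -0.049 without 1 library). Isoleucine loci had 3 of 13, all lower. The background over all tested loci was 7.11% lower. Valine and cysteine loci had medians of -0.08 each, which ran from -0.11 to -0.034 and from -0.10 to -0.022 without 1 library. Leaving out 1 library gave medians of both signs in 10 of 20 amino acids, isoleucine and threonine among them, and moved that of glutamine, the lowest, from -0.12 to between -0.18 and -0.0062. Of the 54 tRNA-Cys loci only 10 had a count high enough to be tested.

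**Figure D4:**
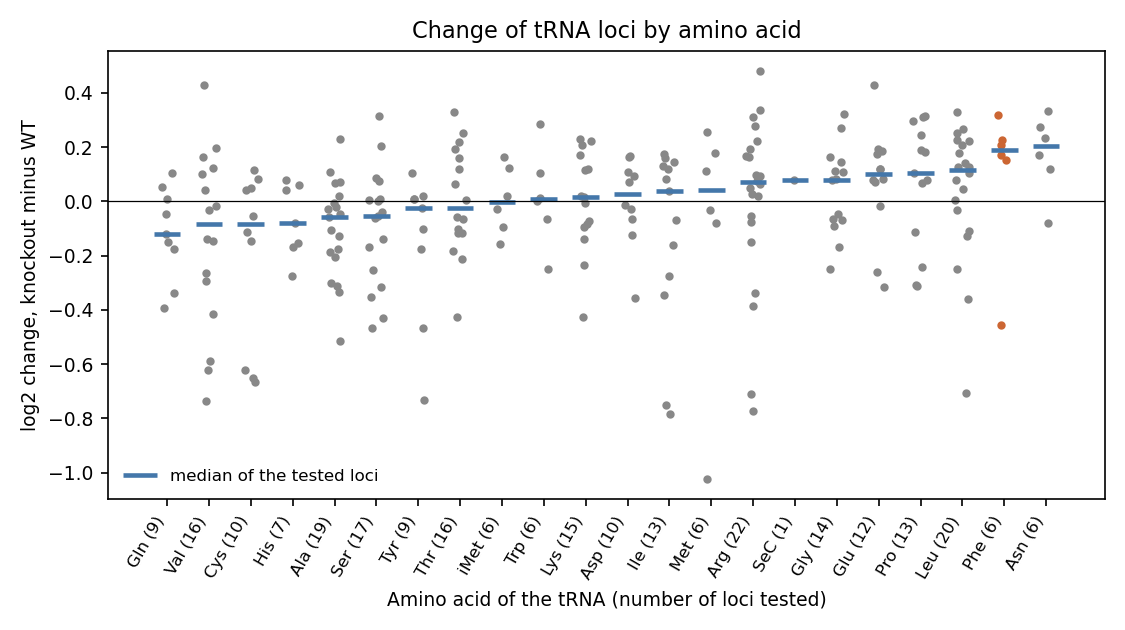
log2 change (y axis, knockout minus WT) of every tested locus by the amino acid of its tRNA (x axis, number of tested loci in brackets; iMet is initiator methionine and SeC selenocysteine), with the median as a line. Medians lie between -0.12 for glutamine and 0.20 for asparagine, and in most families loci lie on both sides of 0.

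Near-cognate tRNAs, whose anticodon differs from GAA at 1 base, could in principle meet phenylalanine codons. Among the loci of the table these are Leu-CAA, Leu-TAA, Cys-GCA and Tyr-GTA, 72 loci in all, of which 26 were tested. Of these, 12 had higher and 14 lower means in the knockout, 1 was higher and 2 lower at an unadjusted p under 0.05, beside backgrounds of 9.88% and 7.11%, and the median log2 change was -0.04, beside 0.01 for all tested loci. Their summed count was 99.3% of WT. The locus with the largest difference was picked for each anticodon, whichever its direction. These were tRNA-Leu-CAA-4-1 (-0.25), tRNA-Leu-TAA-3-1 (-0.36), tRNA-Cys-GCA-4-13 (-0.67) and tRNA-Tyr-GTA-1-2 (-0.73). Of these, tRNA-Leu-CAA-4-1 overlapped between the groups, and its value ran from -0.44 without knockout replicate 7 to -0.094 without replicate 8. The first 3 belong to the lowest of the 4 level groups. Of the 4 Leu-CAA loci, 3 had higher means in the knockout and 2 of these lay above all WT libraries, with a summed count of 109% of WT, and that of Leu-TAA loci was 103% of WT. tRNAs with a long variable arm (leucine, serine and selenocysteine, 38 tested) had a median of 0.01. Those whose anticodon receives queuosine, a modified guanosine (Asp, Asn, His and Tyr, 32 tested), had 0.01 as well. With equal totals both medians were -0.03, as was that of all tested loci. Without 1 library they ran from -0.020 to 0.040 (long variable arm) and from -0.029 to 0.036 (queuosine), so neither has a direction. The near-cognate median ran from -0.048 to -0.020.

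The brain of the other 2 lines allows a test of whether a locus differs between Phe21 and another knockout line. The Phe31 line lacks 3-1 and the Phe11 line lacks 1-1. The Phe31 table holds the same 3 WT libraries and the Phe11 table shares WT replicates 1 and 3, so a direct contrast of the knockouts was used, in which WT cancels (edgeR on recovered reads, 11 batch 1 libraries, 3 of Phe21, 3 of Phe31, 2 of Phe11 and 3 of WT). Phe21 and Phe31 differed at 16 of 260 loci, 6.15%. tRNA-Phe-GAA-3-1, deleted in Phe31, was one of these. Apart from it, no tested tRNA-Phe locus was called. The contrast at 1-2 was 0.26 on the log2 scale (adjusted p = 0.25, edgeR), that at 1-1 was 0.21 (adjusted p = 0.281, edgeR) and that at 1-5 was -0.16 (adjusted p = 0.627, edgeR). Each line in its own table had 1-2 at 125% of WT in Phe21 and 104% in Phe31, and 1-5 at 112% and 125%. Locus 2-1 had 8.35 ± 5.69 in WT and 8.51 ± 5.02 in Phe31 (SD, n = 3), so the low count was also that of a second line in which the gene is present.

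Several of the named loci did differ between these lines. The contrast of Phe21 with Phe31 was 0.31 at tRNA-Asn-GTT-3-7 (adjusted p = 0.0112, edgeR), 0.44 at tRNA-Arg-CCG-3-1, 0.40 at tRNA-Leu-TAG-3-1 and 0.27 at tRNA-Pro-TGG-1-1. It was -0.46 at tRNA-Ala-TGC-1-1, -0.47 at tRNA-Ile-AAT-1-4 and -0.47 at tRNA-Arg-ACG-2-1, all with adjusted p under 0.05 (edgeR). At tRNA-Tyr-GTA-1-2 it was -0.50 (adjusted p = 0.0876, edgeR). Also not called were tRNA-Glu-CTC-1-7 (0.29), tRNA-Thr-CGT-2-1 (0.24), tRNA-Tyr-GTA-1-1 (-0.38) and tRNA-Met-CAT-4-1 (-0.97), with adjusted p of 0.138, 0.102, 0.0703 and 0.109 (edgeR). The 2 near-cognate leucine loci named above were also lower in Phe21, by a contrast of -1.03 at tRNA-Leu-CAA-4-1 and -0.74 at tRNA-Leu-TAA-3-1 (adjusted p = 0.0112 and 0.0473, edgeR). In Phe31 the levels were 173% of WT at tRNA-Leu-CAA-4-1, 101% at tRNA-Asn-GTT-3-7, 95.8% at tRNA-Ala-TGC-1-1 and 83.8% at tRNA-Tyr-GTA-1-2. These loci were chosen for their difference from WT, and both contrasts use the same knockout libraries, so the contrast is not independent of that choice. Without knockout replicate 8 the count of called loci was 5, without replicate 9 it was 7, and without replicate 7 it was 21. Of the loci just named, tRNA-Asn-GTT-3-7, tRNA-Arg-CCG-3-1 and tRNA-Ile-AAT-1-4 were called in all 3 of these fits.

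Phe21 and Phe11 differed at 72 of 260 loci, 27.7%, of which 35 were higher in Phe21. Among the 72 were the 2 near-cognate leucine loci named above. tRNA-Leu-TAA-3-1 was at 77.2% of WT in Phe21 and at 225% in Phe11, a contrast of -1.43, and tRNA-Leu-CAA-4-1 at 85.0% and 224%, a contrast of -1.41 (adjusted p = 5.24e-05 and 0.000131, edgeR). Loci of other families had contrasts of like size, such as tRNA-Arg-ACG-3-2 with -1.48 and tRNA-Ser-GCT-1-1 with -1.32, both named after their values were seen (adjusted p = 0.000894 and 0.000167, edgeR). Locus 1-2 was at 125% of WT in Phe21 and 82.3% in Phe11, with a contrast of 0.43 (adjusted p = 0.0282, edgeR) that missed the threshold without knockout replicate 8 (adjusted p = 0.1, edgeR). The count of 72 was 47 without replicate 8. Both line contrasts use the Phe21 libraries whose difference from WT went with the level of the locus. tRNA-Leu-TAA-3-1 and tRNA-Leu-CAA-4-1, at 26.1 and 25.9 in WT brain, are loci of low count. The part of level in the contrasts was not tested. The percentages for Phe11 come from a table of 4 WT and 4 Phe11 libraries from both batches, whereas the contrast uses batch 1.

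The same deletion was also measured in liver. The change in brain differed from the change in liver at 19 of 247 loci, 7.69% (edgeR, interaction over 12 libraries, of which 1 WT liver belongs to batch 2). Without 1 of the 12 libraries the count was 12 to 24. Locus 1-2 was among the 19. It was at 125% of WT in brain, while in liver it had 35.4 ± 5.41 in WT and 24.8 ± 6.92 in the knockout (SD, n = 3), 70.0% of WT, and the difference between the tissues was 0.93 on the log2 scale (adjusted p = 0.00994, edgeR). Leaving out each of the 12 libraries in turn gave 0.67 to 1.06, and the call was lost in 3 of these fits, without WT liver replicate 1, WT liver replicate 24 or knockout liver replicate 7 (adjusted p up to 0.131, edgeR). The other 5 tested tRNA-Phe loci gave no call. Locus 3-1 was the lower in both tissues, at 73.2% in brain and 60.8% in liver, and 2-1 was at 7.02% and 6.83% of the WT mean. Other named loci were lower in both as well, such as tRNA-Ala-TGC-1-1 (69.7% and 38.8%) and tRNA-Leu-TAA-3-1 (77.2% and 12.9%). tRNA-Asn-GTT-3-7 was higher in both, at 126% and 147%. tRNA-Ile-AAT-1-4 was at 78.5% in brain and 46.5% in liver, a difference of 0.69 (adjusted p = 0.011, edgeR) that was lost in 4 of the 12 such fits, each without 1 liver library, WT replicate 3 or 24 or knockout replicate 8 or 9. At tRNA-Arg-TCT-4-1 the difference was 2.95 (adjusted p = 0.000245, edgeR). Its brain values overlapped, 172 to 237 in WT and 212 to 257 in the knockout, and the liver values behind it were at most 10.7.

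Peaks give a second view that does not start from tRNA genes. The authors' consensus set for this comparison held 219157 regions of open chromatin, called in each sample group and combined. Of 403 tRNA genes placed by RefSeq on GRCm38.p6, 227 (56.3%) overlapped such a region, among them 6 of the 7 tRNA-Phe genes. The exception was 2-1. The other 7 genes of its cluster all lay in peaks, and the starts of the nearest peaks were at -825 and 937 bases from the start of 2-1. Of tRNA-Cys genes 7 of 57 lay in a peak, against 220 of 346 for all the others.

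**Figure D5:**
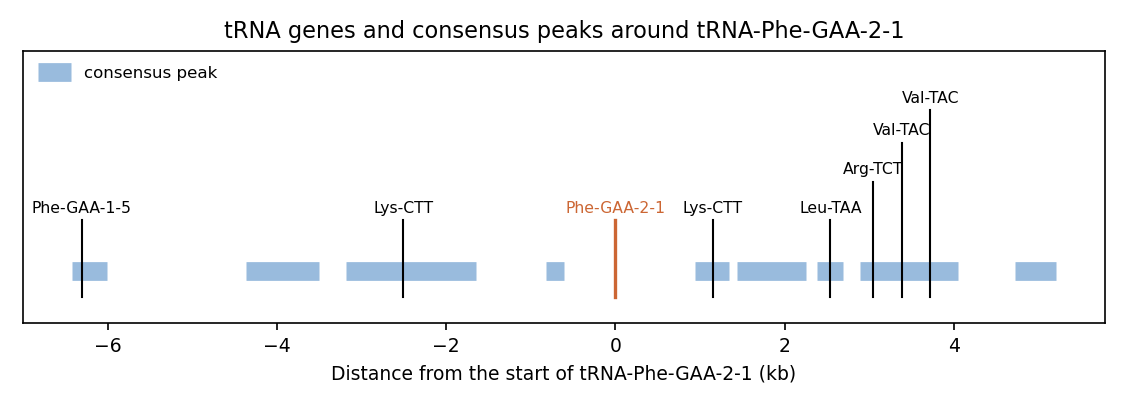
tRNA genes (vertical lines) and consensus peaks (bars) by distance from the start of tRNA-Phe-GAA-2-1 in kilobases, to scale. Each of the other 7 tRNA genes of the cluster stands in a peak, and 2-1, at 0, does not.

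The authors' list of peaks that differ between these groups holds 1558 regions, 0.711% of the consensus set. By the deposited group means, 934 were higher in the knockout and 624 lower, with median differences of 0.67 and -1.08 on the log2 scale. Of the 188 consensus peaks that hold a tRNA gene, 0 were listed, as were 0 of the 9 peaks of the cluster. At the share of 0.711% over all peaks, sets of this size would hold few listed peaks or none. The counts of 0 are thus no result about tRNA genes. Regions within coding genes made up 69.6% of the higher and 57.4% of the lower listed peaks, and 60.3% of all consensus peaks. The share listed per chromosome was 0.641% on chromosome 19, which carries 2-1, and between 0.618% and 0.949% on the autosomes.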

How the data were processed

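ATAC-seq was done on brain nuclei. Per the labels and methods, the authors trimmed reads (Trim Galore 0.6.4, cutadapt 1.18), aligned them to GRCm38.p6 (Bowtie2 2.4.1, up to 20 alignments per pair), removed duplicates (Picard 2.23.8), kept a mapping quality of at least 30 (SAMtools 1.10) and fragments of at most 175 nt, and counted reads over each GtRNAdb tRNA gene with 50 nt on each side (featureCounts 2.0.0). The deposited signal is that count divided by a DESeq2 1.30.0 size factor. Every value was a whole multiple of 1 number per library (tolerance 1e-06), so reads were recovered; the count test on them (edgeR) called 0 loci. The deposited log2 group means of peaks (Genrich 0.6, DiffBind 3.0.8) carry no spread, and the header of the knockout mean reads Phe11, which was read here as Phe21. The score of the deposited consensus peaks and the authors' fold changes, p-values, FDR and s-values were not used.

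Values were tested as log2(normalised count + 1) at loci with a mean of at least 10, with limma 3.58.1 (trend, two-sided) in R 4.3.3 and a Benjamini-Hochberg threshold of 0.05. Folds on this scale understate changes of low loci. Contrasts between lines and tissues used edgeR 4.0.16; DESeq2 1.42.0 was an alternative. Other alternatives were pseudocounts of 0.1 and 10, no filter or a mean of 30, TMM, equal totals, a loess fit along the level, limma without trend, 5 WT libraries with batch, and leaving out each library. The fits were tested on simulated data. Named loci were the 7 tRNA-Phe loci, the 6 higher and 6 lower non-overlapping loci with the smallest p, the 5 highest in WT, tRNA-Arg-TCT-4-1, the largest change per near-cognate anticodon, loci near 2-1, and loci called in any fit that left out 1 library. Members, lists and tests were chosen with earlier results of these data known. For the overlap with peaks, 5 RefSeq tRNA genes with positions in the first 3 Mb of a chromosome, which hold no sequence, were left out. The 6 tRNA genes of other families near 2-1 carry RefSeq names that were not paired with table names here.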

Additional observations from a re-analysis of the deposited data

Results flagged for a closer look

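The results below are differences between effects measured in several lines or tissues, each from the test of the difference itself (edgeR, Benjamini-Hochberg over all loci tested), and are given as values. The part of locus level in these differences was not tested. Phe21 differed from Phe31 in brain at 16 loci. At those of the 16 that are named in the text, the contrasts, on the log2 scale and as Phe21 minus Phe31, were 3.85 at tRNA-Phe-GAA-3-1, which Phe31 lacks, 0.44 at tRNA-Arg-CCG-3-1, 0.40 at tRNA-Leu-TAG-3-1, 0.31 at tRNA-Asn-GTT-3-7 and 0.27 at tRNA-Pro-TGG-1-1. On the lower side they were -0.46 at tRNA-Ala-TGC-1-1, -0.47 at both tRNA-Arg-ACG-2-1 and tRNA-Ile-AAT-1-4, -0.74 at tRNA-Leu-TAA-3-1 and -1.03 at tRNA-Leu-CAA-4-1. Without 1 Phe21 library the call was lost in all 3 fits at tRNA-Leu-TAA-3-1, in 2 each at tRNA-Ala-TGC-1-1, tRNA-Arg-ACG-2-1 and tRNA-Pro-TGG-1-1, and in 1 each at tRNA-Leu-TAG-3-1 and tRNA-Leu-CAA-4-1.

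Phe21 differed from Phe11 in brain at 72 loci. The named loci with positive contrasts were tRNA-Phe-GAA-1-1, which Phe11 lacks, with 1.54, tRNA-Arg-CCG-3-1 with 0.72, tRNA-Leu-TAG-3-1 with 0.57, tRNA-Arg-TCG-1-1 and tRNA-Asn-GTT-3-7 with 0.53, and tRNA-Thr-CGT-2-1 with 0.50. Smaller ones were 0.43 at tRNA-Phe-GAA-1-2, 0.34 at tRNA-Pro-TGG-1-1, 0.32 at tRNA-Tyr-GTA-3-1, and 0.22 at both tRNA-Arg-ACG-1-3 and tRNA-Tyr-GTA-3-2. The negative contrasts at named loci were -0.50 at tRNA-Tyr-GTA-1-1, -0.51 at tRNA-Ile-AAT-1-4, -0.60 at tRNA-Arg-ACG-2-1, -0.68 at tRNA-Ala-TGC-1-1 and -0.71 at tRNA-Tyr-GTA-1-2. Those of named loci below -1 were -1.21 at tRNA-Met-CAT-4-1, -1.30 at tRNA-Ile-AAT-1-7, -1.41 at tRNA-Leu-CAA-4-1 and -1.43 at tRNA-Leu-TAA-3-1. Over the 3 fits without 1 Phe21 library, the call was lost in 2 at tRNA-Tyr-GTA-3-2 and in 1 each at tRNA-Arg-ACG-1-3, tRNA-Met-CAT-4-1, tRNA-Phe-GAA-1-2 and tRNA-Tyr-GTA-1-1 (adjusted p up to 0.0846, 0.111, 0.109, 0.1 and 0.0636, edgeR).

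The change in brain differed from the change in liver at 19 loci. The named ones were tRNA-Arg-TCT-4-1 with 2.95, tRNA-Leu-TAA-3-1 with 2.48, tRNA-Phe-GAA-1-2 with 0.93, tRNA-Ile-AAT-1-4 with 0.69 and tRNA-Arg-TCG-1-1 with 0.59, all as brain minus liver. Over the 12 fits without 1 library, the call was lost in 8 at tRNA-Leu-TAA-3-1, in 4 at tRNA-Ile-AAT-1-4 and in 3 at tRNA-Phe-GAA-1-2. The liver counts behind the first 2 are low. tRNA-Leu-TAA-3-1 had 7.83 ± 3.76 in WT liver and 1.01 ± 0.21 in knockout liver (SD, n = 3). The part of depth, which was lower in liver, was not tested.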

How the results depend on the processing

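With 0 loci called by the test as reported, 1 was called with no filter (tRNA-Met-CAT-6-1, at 0 reads in each WT library and 1 read in each knockout library), 9 with TMM, 11 with 5 WT libraries and a batch term, and 0 to 9 when 1 library was left out; all 14 loci called anywhere had the same direction under every setting that tested them. Of 29 named loci tested, 24 kept their direction throughout. The 5 loci of highest count in WT did not: with equal totals tRNA-Tyr-GTA-3-1 was at -0.017 and tRNA-Tyr-GTA-2-1 at -0.028. With the loess fit these were -0.11 and -0.12, tRNA-Arg-ACG-1-3 was at -0.032, tRNA-Tyr-GTA-3-2 at -0.019 and tRNA-Glu-TTC-2-2 at -0.052. Leaving out 1 library gave -0.048 (without WT replicate 2) to 0.049 at tRNA-Tyr-GTA-2-1.

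The share of non-overlapping loci ran from 30.7% to 43.9% when 1 library was left out, where fewer libraries make separation easier. The sum over the 6 intact tRNA-Phe loci stayed between 108% and 114% of WT over all its alternatives. The median log2 change of tRNA-Phe loci ran from 0.15 to 0.25 without 1 library. Other medians that moved by more than their own spread between libraries were alanine (-0.095 with equal totals, -0.12 to -0.049 without 1 library), arginine (-0.013 with loess), asparagine and histidine (both 0 with no filter), glutamate (0.042 to 0.19 without 1 library) and histidine (-0.16 to 0.020 without 1 library). The log2 difference at 2-1 was -0.77 with a pseudocount of 10, -4.64 with 0.1 and -3.21 without WT replicate 2. The median of the lowest level group ran from -0.28 to -0.10.

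Without 1 Phe21 library, 5 to 21 loci differed between Phe21 and Phe31 and 47 to 83 between Phe21 and Phe11. Without 1 of 12 libraries, 12 (knockout liver replicate 8) to 24 differed between brain and liver. Leaving out libraries in that tissue fit, at single loci of the contrasts and for the level groups were alternatives chosen after seeing the data. With a replicate block, over the 10 libraries with a shared number, the tissue fit called 16 in place of 19. Correlations of deviations between same-numbered brain and liver libraries were -0.045 to 0.046. Such deviations need not be shared between tissues of the same animal, so these values cannot decide whether the libraries are paired. The labels give no pairs, and the numbers were not taken as pairs. The brain groups share no replicate numbers. Depth limits the value at 2-1, with 23 reads in WT and 2 in the knockout.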

Other observations

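Among the authors' listed peaks, the largest differences of the deposited group means, picked after the values were seen, lay away from tRNA genes. A peak in the zinc finger gene Zfp932 (chr5:109996151-109996806, GRCm38.p6) had a log2 mean of 8.13 in WT and 0 in the knockout. A peak in Adamts18, which encodes a secreted metalloprotease (chr8:113790996-113791378), had 5.78 and 0, and one outside coding genes (chr7:109094411-109094625) had 4.62 and 0. In the other direction the largest differences were 3.26 at chr5:28779232-28779559 and 3.22 at chr16:25930780-25930986, both outside coding genes, and 2.92 in Lhfp at chr3:53253266-53253534. These are group means with no value per library, so no spread can be given.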
